A study of Mus musculus with 12 samples.

Results

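The 4 genes described here belong to the Kit system and to interstitial cells of Cajal, and were followed through sorted stromal cells of the mouse gut: the receptor Kit, its ligand Kitl, the chloride channel Ano1 and the transcription factor Etv1. They were taken by name from a table of 32052 genes, and all 4 passed the low-count filter that left 16757 genes to test. RNA sequencing of total RNA had been done on EPCAM-negative, CD45-negative stromal cells from C57Bl6 mice of 8 to 12 weeks, split by a GFP transgene that reports Rspo3. The 12 libraries form 4 groups of 3, which are GFP-positive and GFP-negative cells of the colon and GFP-positive and GFP-negative cells of the small intestine. All 4 groups share the strain, the transgene and the same depletion of epithelial and blood cells. The labels do not say that replicates were separate animals or how many animals were pooled, so p-values measure the spread between these libraries, which may be technical. Libraries sorted on CD31, which the design text also names, are not analysed here.

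Kit is a receptor tyrosine kinase of the cell surface, and Kitl (stem cell factor) binds and pairs it after being made as a membrane protein that proteases can release. In the gut wall Kit marks interstitial cells of Cajal, the pacemaker cells of the muscle layer, and it also marks mast cells. Ano1 encodes the calcium-activated chloride channel that carries the pacemaker current of Cajal cells. Etv1 encodes an ETS-family transcription factor that Cajal cells need and that Kit signalling stabilises. Ano1 and Kitl are also made outside Cajal cells, in epithelium among other places, so none of the 4 genes identifies that cell alone.

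In the GRCm38 build with GENCODE M21 genes, Kit (ENSMUSG00000005672) lies on the plus strand of chromosome 5 at 75574916 to 75656722. Kitl (ENSMUSG00000019966) lies on the plus strand of chromosome 10 at 100015630 to 100100416. Ano1 (ENSMUSG00000031075) lies on the minus strand of chromosome 7 at 144588549 to 144751974. Etv1 (ENSMUSG00000004151) lies on the plus strand of chromosome 12 at 38779380 to 38870484. All 4 are protein-coding genes, and their values are summed over each gene's transcripts.

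The RefSeq promoter windows of the 4 genes (GRCm38.p6, 300 bases that span a transcript start) are shown because all 4 genes fell together in the colon and 1 of them, Etv1, encodes an ETS factor. Capitals mark the ETS core GGAA or its reverse complement TTCC, searched on both strands. The first listed window of each gene was used where RefSeq gave several. The windows are chr5:75574737-75575036 on the plus strand for Kit, chr10:100015571-100015870 on the plus strand for Kitl, chr7:144738524-144738823 on the minus strand for Ano1 and chr12:38779832-38780131 on the plus strand for Etv1. The Kit and Kitl windows span the outermost annotated start of their genes. The Ano1 and Etv1 windows lie inside the annotated genes, at starts downstream of the outermost one.
Kit: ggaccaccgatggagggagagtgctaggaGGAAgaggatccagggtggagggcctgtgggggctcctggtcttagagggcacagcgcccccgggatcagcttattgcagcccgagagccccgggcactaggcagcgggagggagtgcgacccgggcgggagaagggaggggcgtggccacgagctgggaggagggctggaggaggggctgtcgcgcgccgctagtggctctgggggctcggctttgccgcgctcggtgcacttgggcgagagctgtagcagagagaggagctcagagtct
Kitl: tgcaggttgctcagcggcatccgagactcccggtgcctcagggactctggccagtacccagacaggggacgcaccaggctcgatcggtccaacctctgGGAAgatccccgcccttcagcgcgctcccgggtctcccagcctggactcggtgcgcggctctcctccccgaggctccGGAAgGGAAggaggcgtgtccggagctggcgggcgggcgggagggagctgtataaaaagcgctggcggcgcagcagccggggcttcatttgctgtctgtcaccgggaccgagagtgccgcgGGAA
Ano1: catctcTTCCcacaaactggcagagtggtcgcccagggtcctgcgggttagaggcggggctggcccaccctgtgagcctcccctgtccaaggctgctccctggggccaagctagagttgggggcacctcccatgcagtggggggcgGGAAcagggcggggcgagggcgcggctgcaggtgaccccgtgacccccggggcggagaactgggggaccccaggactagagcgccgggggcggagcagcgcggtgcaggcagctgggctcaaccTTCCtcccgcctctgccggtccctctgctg
Etv1: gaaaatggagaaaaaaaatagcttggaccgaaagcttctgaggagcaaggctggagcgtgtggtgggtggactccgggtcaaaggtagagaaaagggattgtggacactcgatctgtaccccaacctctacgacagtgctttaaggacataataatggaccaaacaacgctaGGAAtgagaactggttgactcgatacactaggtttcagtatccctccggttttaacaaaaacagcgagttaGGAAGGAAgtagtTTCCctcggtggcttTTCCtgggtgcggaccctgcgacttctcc

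The Kit window holds GGAA 1 time, and the Kitl window holds it 4 times. The Ano1 window holds GGAA 1 time and TTCC 2 times, and the Etv1 window holds GGAA 3 times and TTCC 2 times. A GGAA core on either strand is in 95.9% of the 27025 RefSeq promoter windows, with a median of 3 matches, so most windows hold it. The longer form CCGGAA, which contains the core, was found 1 time, in the Kitl window, and is in 15.2% of windows. The Kitl window also holds TATAAA, which is in 14.2% of windows. The G and C content was 69% for Kit, 68.7% for Kitl, 71.7% for Ano1 and 48.7% for Etv1, against a median of 52.7% over all windows.

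The sort separated its target gene. Rspo3 was at 117 to 161 CPM (counts scaled to library size with TMM factors) in colon GFP-positive libraries, against 2.28 to 6.51 in colon GFP-negative libraries. It was at 191 to 196 CPM in small intestinal GFP-positive libraries, against 4.5 to 13.7 in small intestinal GFP-negative libraries. Library totals ran from 6489835 to 12286054 counts. Fibroblast markers summed to 19600 to 24200 CPM and 24200 to 26600 CPM in colon GFP-positive and GFP-negative libraries, and to 40600 to 61800 CPM and 7920 to 22600 CPM in small intestinal GFP-positive and GFP-negative libraries. The third small intestinal GFP-negative library stands apart: it had 1889 counts of Ptprc, which encodes the CD45 used to deplete blood cells, where the other 11 libraries had 0 to 86. Results that rest on it are given with and without it.

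In the colon, all 4 genes fell in GFP-positive cells. The background share of genes called lower there was 4.06% of 16757, at a Benjamini-Hochberg adjusted p under 0.05 by edgeR's quasi-likelihood test. In the small intestine Kitl and Ano1 fell and Kit and Etv1 did not pass the test, beside a background of 6.63% called lower. This fit had no replicate block. With the replicate number as a block, Ano1 passed in neither tissue (adjusted p = 0.0967 in the colon and 0.0796 in the small intestine). Etv1 did not pass in the colon with the block (adjusted p = 0.0563). All 4 genes also had every GFP-positive library below every GFP-negative one in the colon, which was so for 17.8% of all genes. Small intestinal groups were separate in this way for Kitl and Ano1, beside 12.3% of all genes. In bulk libraries of sorted cells, fewer cells of a type and less RNA per cell cannot be told apart. The GFP comparisons of the colon and of the small intestine share no library, although the fit estimates the spread over all 12. The third libraries of all groups share a prefix in their names that the labels do not explain, so the comparisons may not be independent.

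**Figure D1:**
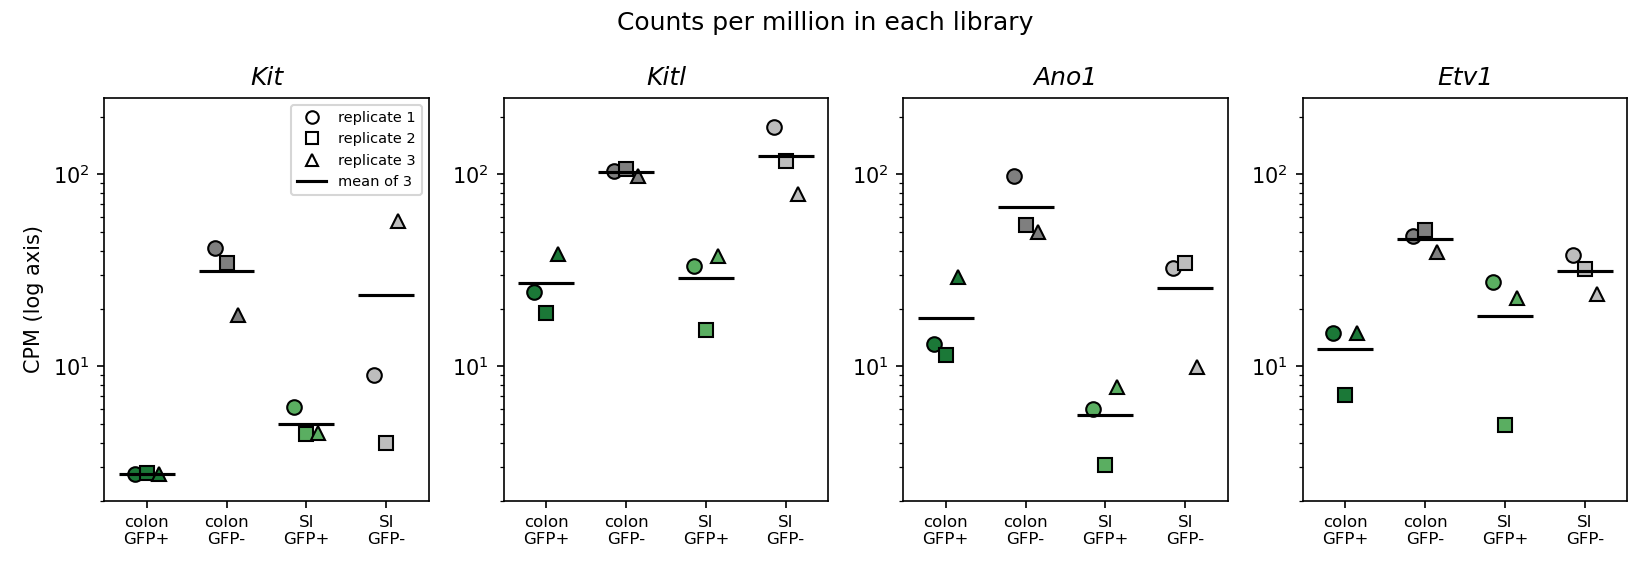
Level of Kit, Kitl, Ano1 and Etv1 in each of the 12 libraries, in CPM with TMM factors on a logarithmic axis, by tissue and GFP sort, with a bar at each group mean. Each of the 4 genes has its 3 colon GFP-positive points below its 3 colon GFP-negative points, and the Kit point at 57.4 CPM is the third small intestinal GFP-negative library.

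Kitl, the ligand, fell in GFP-positive cells of both tissues. Its level was 24.5, 19 and 38.5 CPM in colon GFP-positive libraries, against 104, 107 and 98 CPM in colon GFP-negative libraries. The groups do not overlap, and the 3 GFP-negative libraries lie close together while the GFP-positive ones spread more. Small intestinal Kitl was at 33.3, 15.4 and 37.4 CPM in GFP-positive libraries, against 177, 118 and 78.6 CPM in GFP-negative libraries. There too every GFP-positive library was below every GFP-negative one. Kitl averaged 27.3 ± 10.1 CPM in colon GFP-positive and 103 ± 4.64 CPM in colon GFP-negative libraries (SD, n = 3 each), a log2 fold change of -1.91 ± 0.37 (SE), or 3.77-fold lower, with adjusted p = 0.00632. It averaged 28.7 ± 11.7 CPM in small intestinal GFP-positive and 125 ± 49.7 CPM in small intestinal GFP-negative libraries (SD, n = 3 each), a log2 fold change of -2.12 ± 0.37, or 4.34-fold lower, with adjusted p = 0.00346. Kitl passed the test in both tissues in each of the 12 fits that left out 1 library. Its largest adjusted p among them was 0.0376 in the colon and 0.0147 in the small intestine.

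Kit, the receptor, had the largest difference in the colon of the 4 genes. It was at 2.75, 2.77 and 2.74 CPM in colon GFP-positive libraries, from 25, 21 and 24 counts, against 41.2, 34.4 and 18.5 CPM in colon GFP-negative libraries, from 281, 301 and 146 counts. The 3 GFP-positive libraries were nearly equal, and the lowest GFP-negative library was well above them. Kit averaged 2.75 ± 0.0165 CPM in colon GFP-positive and 31.4 ± 11.7 CPM in colon GFP-negative libraries (SD, n = 3 each). At 21 to 25 counts a library, counting alone varies by more than the SD of 0.0165 CPM, so that SD is no measure of precision. The log2 fold change was -3.50 ± 0.83, or 11.3-fold lower, with adjusted p = 0.0222 and a 95% interval of -5.32 to -1.69. The call was lost without any 1 of 5 colon libraries, namely the 3 GFP-positive ones and the first and second GFP-negative ones, where the log2 fold change was between -3.51 and -3.26 and the adjusted p between 0.065 and 0.104.

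In the small intestine Kit did not pass the test. It was at 6.16, 4.43 and 4.49 CPM in GFP-positive libraries, against 9.02, 3.97 and 57.4 CPM in GFP-negative libraries. The groups overlap: the second GFP-negative library lies below all 3 GFP-positive ones and the third lies far above. The log2 fold change was -2.21 ± 0.77 with adjusted p = 0.102. Without the third GFP-negative library it was -0.36, with adjusted p = 0.713. Without the second GFP-negative library it was -2.70, with adjusted p = 0.0124, and passed the test. DESeq2 on all 12 libraries also called it, at -2.28 with adjusted p = 0.0116. With the replicate number as a block the value was -1.31 (adjusted p = 0.304), and with limma-voom it was -1.11 (adjusted p = 0.486).

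The high Kit value of the third small intestinal GFP-negative library came with mast cell transcripts. That library had 34 counts of Cpa3, 56 of Mcpt1, 59 of Mcpt2 and 7 of Mcpt4, genes for proteases of mast cell granules. Over these 4 genes it summed to 156 counts, and the other 11 libraries had none except 1 count of Cpa3 in the second colon GFP-positive library. Of the 11 mast cell markers listed, 9 are in the table and 2 passed the filter, Ptprc and Hdc (histidine decarboxylase). Cma1, Fcer1a and Ms4a2 had at most 4 counts in any library, and Tpsab1 and Tpsb2 were not analysed here. The 9 markers summed to 347 CPM in that library, against 2.75 to 34.4 CPM in the other 11, but 304 CPM of it was Ptprc, which all blood leukocytes carry, and 18 CPM was Hdc. In the first and second small intestinal GFP-negative libraries, at 34.4 and 31.6 CPM, the sum was mostly Hdc, at 27.7 and 29.9 CPM. Ano1, Etv1 and Kitl each had their lowest small intestinal GFP-negative value in the third library, where Kit had its highest. Melanocyte markers, of another Kit-bearing cell, summed to at most 1.61 CPM in any library. The part of mast cell RNA in the Kit values was not tested. In the colon, where the Kit difference was called, the 4 proteases Cpa3, Mcpt1, Mcpt2 and Mcpt4 were at 0 in 5 of 6 libraries and at 1 count in the other. Cma1 had 4 counts in the third colon GFP-positive library and 1 in the third colon GFP-negative one, and Ms4a2 had 1 in the former.

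**Figure D2:**
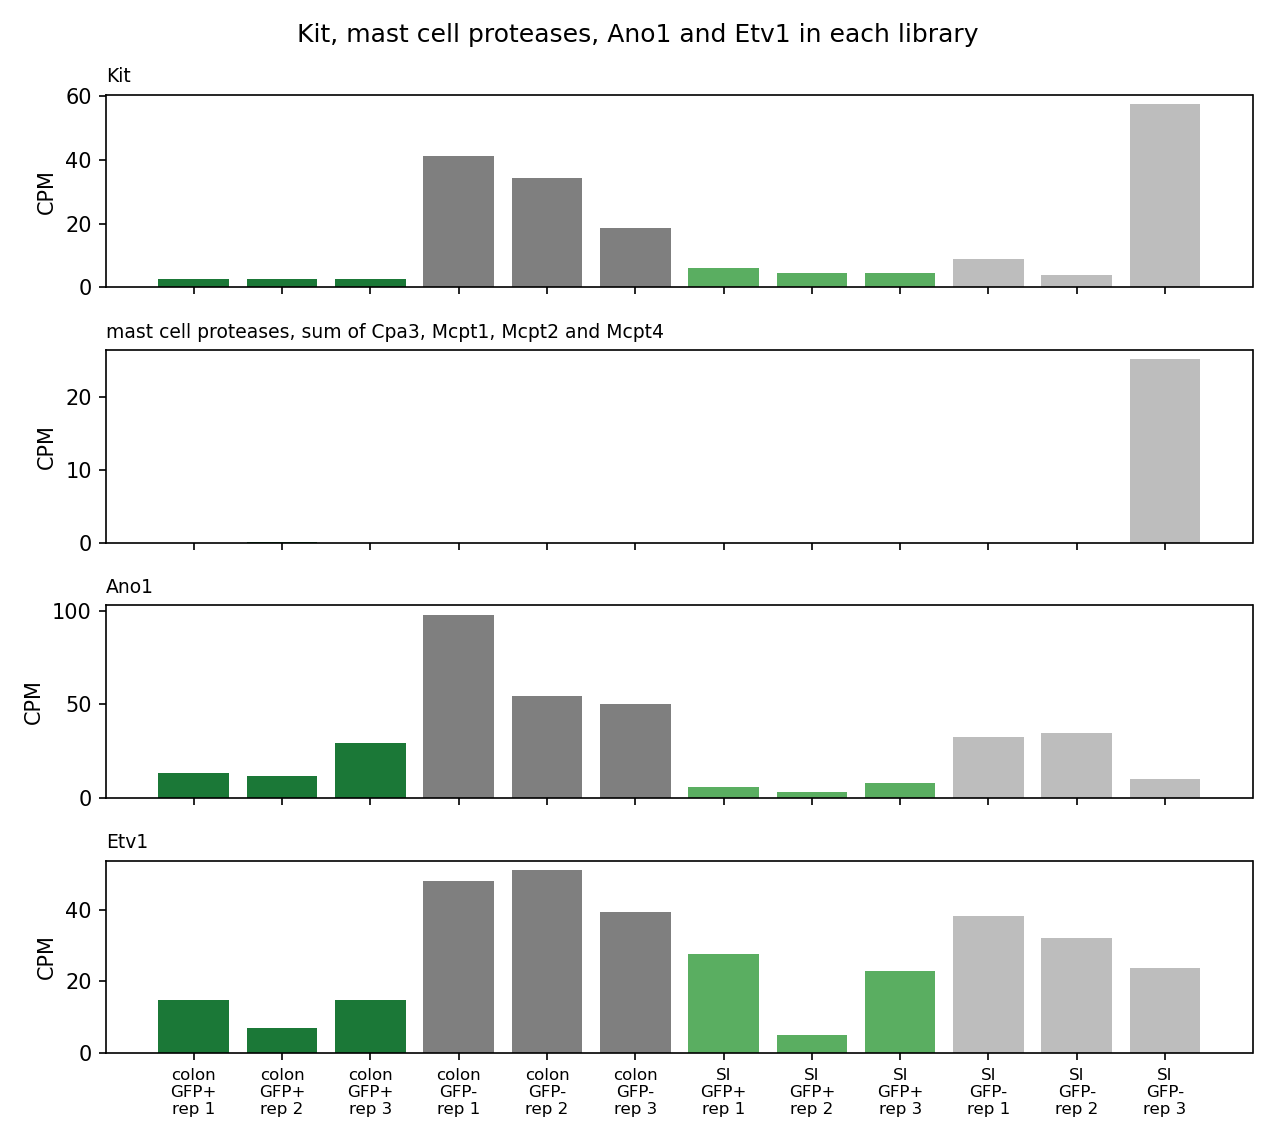
Level of Kit, of the summed mast cell proteases Cpa3, Mcpt1, Mcpt2 and Mcpt4, of Ano1 and of Etv1, in stacked panels. Bars give CPM on a linear axis for each of the 12 libraries, coloured by group. The third small intestinal GFP-negative library has the highest Kit bar, at 57.4 CPM. Its protease bar comes from 156 counts, and the other 11 libraries had 0 or 1 count.

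Ano1, the chloride channel of the pacemaker current, fell in both tissues. In the colon it was at 13.1, 11.5 and 29.3 CPM in GFP-positive libraries, against 98, 54.5 and 50.2 CPM in GFP-negative libraries. Small intestinal Ano1 was at 5.99, 3.06 and 7.8 CPM in GFP-positive libraries, against 32.5, 34.5 and 9.97 CPM in GFP-negative libraries. Neither pair of groups overlaps, but the third small intestinal GFP-negative library is close to the highest GFP-positive one. Ano1 averaged 17.9 ± 9.83 CPM in colon GFP-positive and 67.5 ± 26.5 CPM in colon GFP-negative libraries (SD, n = 3 each), with a log2 fold change of -1.91 ± 0.52, or 3.76-fold lower, and adjusted p = 0.0419. It averaged 5.61 ± 2.39 CPM in small intestinal GFP-positive and 25.6 ± 13.6 CPM in small intestinal GFP-negative libraries (SD, n = 3 each), with -2.20 ± 0.54, or 4.59-fold lower, and adjusted p = 0.022. Replicate numbers were taken to pair the small intestinal libraries, and with that number as a block Ano1 did not pass there (log2 fold change -2.12, adjusted p = 0.0796). In the colon, where pairing was not settled, Ano1 did not pass with the block either (log2 fold change -1.98, adjusted p = 0.0967). Leaving out 1 library ended the small intestinal call in 4 of 12 fits, those without the first or second GFP-positive or the first or second GFP-negative library, at adjusted p between 0.0539 and 0.0886. It ended the colon call in 7 of 12 fits at adjusted p between 0.054 and 0.181, those without the first or second colon GFP-positive library, any colon GFP-negative one, or the first small intestinal library of either sort.

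Etv1, the ETS factor, fell in the colon. It was at 14.9, 7.13 and 14.9 CPM in colon GFP-positive libraries, against 48, 51.1 and 39.3 CPM in colon GFP-negative libraries. The GFP-negative libraries were all above the GFP-positive ones by a wide margin. Etv1 averaged 12.3 ± 4.49 CPM in colon GFP-positive and 46.1 ± 6.11 CPM in colon GFP-negative libraries (SD, n = 3 each), a log2 fold change of -1.90 ± 0.50, or 3.73-fold lower, with adjusted p = 0.0347. Small intestinal Etv1 was at 27.6, 4.93 and 22.8 CPM in GFP-positive libraries, against 38.1, 32 and 23.8 CPM in GFP-negative libraries. These groups overlap, since the first GFP-positive library is above the third GFP-negative one, and the second GFP-positive library is far below the others. The log2 fold change there was -0.76 ± 0.49 with adjusted p = 0.389 and a 95% interval of -1.82 to 0.30. The colon call was lost without any 1 of the 6 colon libraries or the second small intestinal GFP-negative one, at adjusted p between 0.0512 and 0.151. With the replicate number as a block it was lost too (log2 fold change -1.95, adjusted p = 0.0563).

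**Figure D3:**
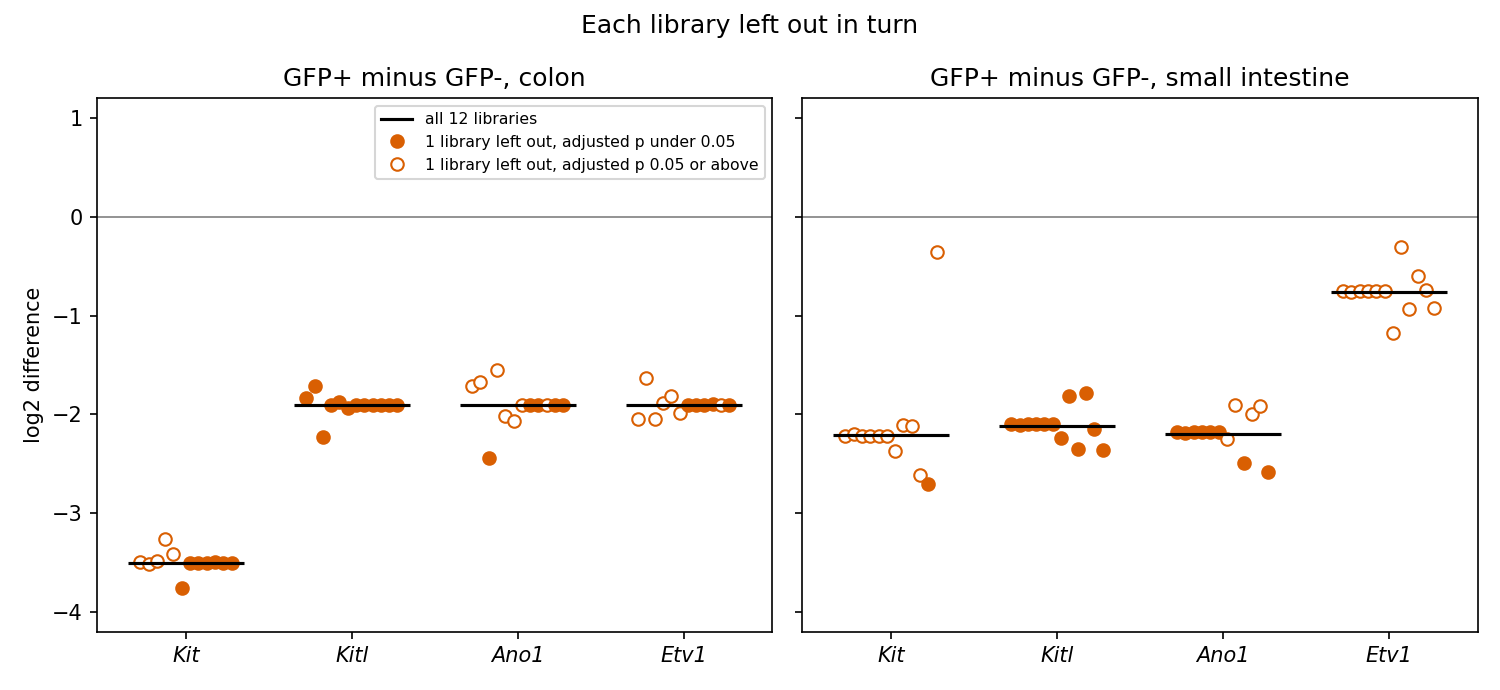
Log2 fold change of Kit, Kitl, Ano1 and Etv1, GFP-positive over GFP-negative, in the fit of 12 libraries and in the 12 fits that each leave out 1 library, by tissue, with filled and open points for fits in which the gene did or did not pass an adjusted p under 0.05. Kitl passed in all 12 fits in both tissues, and the Kit value of the small intestine ran between -2.70 and -0.36.

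The 4 genes were also compared between tissues and for the difference of their GFP effects. None passed a test. For the GFP effect in the colon minus that in the small intestine, beside a background of 2.06% of genes called, Kit gave -1.30 ± 1.08 (adjusted p = 0.682, 95% interval -3.66 to 1.07) and Etv1 gave -1.14 ± 0.69 (adjusted p = 0.513, 95% interval -2.64 to 0.36). Kitl gave 0.21 ± 0.51 (adjusted p = 0.931, 95% interval -0.90 to 1.31) and Ano1 gave 0.29 ± 0.72 (adjusted p = 0.931, 95% interval -1.29 to 1.87). These intervals all include 0, and a call in 1 tissue and none in the other is not shown to be a difference between tissues. For Kit the value turned on 1 library. Without the third small intestinal GFP-negative library, the one high in Ptprc and mast cell transcripts, it was -3.15 with adjusted p = 0.0172. With all 12 libraries it was -2.12 with the replicate block (adjusted p = 0.357) and -2.29 with limma-voom (adjusted p = 0.538).

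Ano1 had higher levels in the colon than in the small intestine in both sorts, without passing the test. Every colon library was above every small intestinal one of the same sort, which was so for 12.9% of all genes in GFP-positive and 11.5% in GFP-negative cells. The log2 fold change of colon over small intestine was 1.68 ± 0.53 (adjusted p = 0.118, 95% interval 0.51 to 2.85) in GFP-positive cells, beside 4.57% of genes called. It was 1.39 ± 0.51 (adjusted p = 0.162, 95% interval 0.27 to 2.51) in GFP-negative cells, beside 4.21% called. Without the third small intestinal GFP-negative library, which enters through the shared estimate of spread, the GFP-positive value stayed at 1.68 and passed at adjusted p = 0.0399. DESeq2 on all 12 libraries called it at 1.70 with adjusted p = 0.0166. Without the third colon GFP-positive library the GFP-positive value was 1.17, with adjusted p = 0.383. That library had the highest sum of epithelial markers in its group, at 1870 CPM, and the part of epithelial RNA in Ano1 was not tested. Kitl gave -0.07 ± 0.36 (adjusted p = 0.962, 95% interval -0.86 to 0.72) in GFP-positive and -0.27 ± 0.36 (adjusted p = 0.765, 95% interval -1.05 to 0.50) in GFP-negative cells. Etv1 gave -0.58 ± 0.49 (adjusted p = 0.652) in GFP-positive and 0.56 ± 0.48 (adjusted p = 0.615) in GFP-negative cells, where every colon library was above every small intestinal one. Kit gave -0.87 ± 0.79 (adjusted p = 0.682) in GFP-positive cells, with every colon library below every small intestinal one, which was so for 11.8% of all genes. In GFP-negative cells Kit gave 0.43 ± 0.73 (adjusted p = 0.835), and without the third small intestinal library 2.28 (adjusted p = 0.0119). That value was 0.85 with the replicate block (adjusted p = 0.688) and 1.43 with limma-voom (adjusted p = 0.265). These tissue comparisons use the same libraries as the GFP comparisons.

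**Figure D4:**
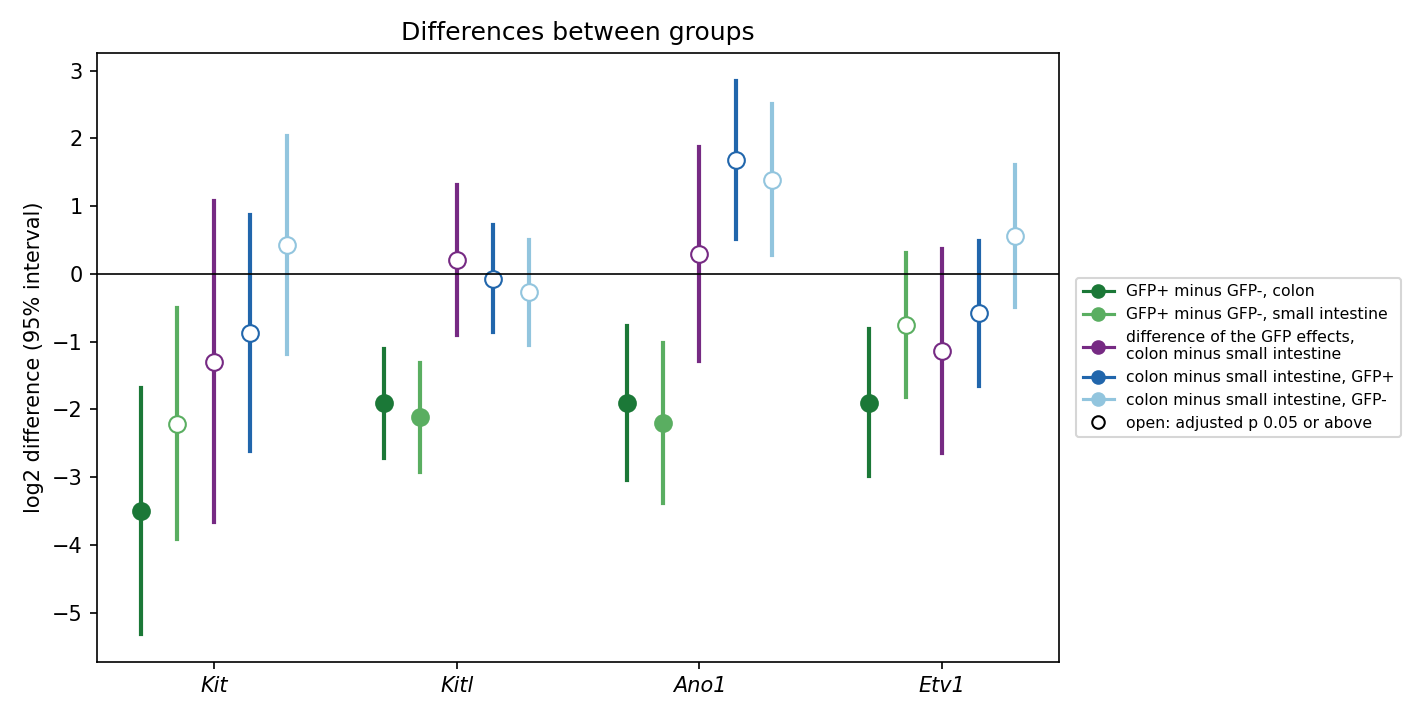
Log2 fold changes of Kit, Kitl, Ano1 and Etv1 with 95% intervals in the 5 comparisons of the 12-library fit (GFP-positive over GFP-negative in each tissue, the difference of those effects, and colon over small intestine in each sort), with filled points for an adjusted p under 0.05. The 6 filled points are the 4 genes in the colon GFP comparison and Kitl and Ano1 in the small intestinal one.

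Levels of different genes can be compared only per transcript length, for which the deposited TPM (transcript abundance scaled for length and depth) were used. Kitl had the highest TPM of the 4 genes in 11 of 12 libraries and Kit the lowest in 10. Mean TPM of Kitl was 2.02 in colon GFP-positive, 8.89 in colon GFP-negative, 1.54 in small intestinal GFP-positive and 6.96 in small intestinal GFP-negative libraries. Kit had a mean TPM of 0.15 in colon GFP-positive, 1.4 in colon GFP-negative, 0.445 in small intestinal GFP-positive and 0.969 in small intestinal GFP-negative libraries. Ano1 had means of 1.28 in colon GFP-positive, 4.17 in colon GFP-negative, 0.506 in small intestinal GFP-positive and 1.09 in small intestinal GFP-negative libraries. Etv1 had means of 0.848 in colon GFP-positive, 2.73 in colon GFP-negative, 0.848 in small intestinal GFP-positive and 1.23 in small intestinal GFP-negative libraries. Small noncoding genes held 90.6% to 94.2% of all TPM, so these values are low against the TPM total. A limma test on the deposited log2(TPM + 1) values, a scale that understates changes at such low levels, did not call Kit (-1.01, adjusted p = 0.0921) or Etv1 (-1.02, adjusted p = 0.0606) in the colon. It did not call Kitl (-1.60, adjusted p = 0.0891) or Ano1 (-0.42, adjusted p = 0.609) in the small intestine.

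The ratio of ligand to receptor by TPM varied from library to library. Kitl over Kit was 18, 17.8 and 11.6 in colon GFP-positive libraries, against 3.15, 9.86 and 11.3 in colon GFP-negative libraries. It was 5.1, 0.505 and 8.7 in small intestinal GFP-positive libraries, against 20.7, 28.6 and 1.35 in small intestinal GFP-negative libraries. Colon GFP-positive libraries were above colon GFP-negative ones, with nearest values of 11.6 and 11.3, whereas the small intestinal groups overlap. By CPM, not scaled for length, the ratio was 8.92, 6.86 and 14 in colon GFP-positive and 2.53, 3.12 and 5.3 in colon GFP-negative libraries. The second small intestinal GFP-positive library, at 0.505 by TPM, was at 3.47 by CPM. The ratio of 1.35 is from the library high in Ptprc and mast cell transcripts. TPM and CPM of Kit did not run in proportion, since colon GFP-positive libraries with 2.75, 2.77 and 2.74 CPM had 0.068, 0.067 and 0.316 TPM.

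Other genes known from Cajal cells did not move as a block with Kit, Ano1 and Etv1. Of 12 listed, 11 passed the filter. In the colon 3 rose and 3 fell in GFP-positive cells, with a median log2 fold change of -0.29 beside -0.03 over all genes, and backgrounds of 4.62% called higher and 4.06% called lower. In the small intestine 2 rose and 2 fell, with a median of 0.28 beside -0.03, and backgrounds of 4.24% and 6.63%. The number that rose in the small intestine was 4 with the replicate number as a block and 4 without the second GFP-negative library. Summed over the 12 listed genes, the level was 1430 to 1650 CPM in colon GFP-positive and 1020 to 1080 CPM in colon GFP-negative libraries. It was 983 to 1180 CPM in small intestinal GFP-positive and 604 to 939 CPM in small intestinal GFP-negative libraries. Much of the colon sum was Gucy1a1 (means of 465 CPM in GFP-positive and 160 CPM in GFP-negative libraries) and Gucy1b1 (364 and 118 CPM). Only 4 of the 11 tested genes had a positive log2 fold change in the colon, so the sum does not stand for the list.

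Prkcq, the protein kinase C theta used as a Cajal cell marker, rose in both tissues, opposite to the called fall of Kit in the colon. It averaged 81.3 CPM in colon GFP-positive and 6.33 CPM in colon GFP-negative libraries, a log2 fold change of 3.68 ± 0.40 (adjusted p = 0.00021). It averaged 80.2 CPM in small intestinal GFP-positive and 3.96 CPM in small intestinal GFP-negative libraries, a log2 fold change of 4.34 ± 0.41 (adjusted p = 0.000146). Which cells carried Prkcq in these libraries was not tested. Cacna1h, a T-type calcium channel, fell to 6.27 CPM in colon GFP-positive against 40.9 CPM in colon GFP-negative libraries (log2 fold change -2.69 ± 0.42, adjusted p = 0.00159), and to 10.8 CPM in small intestinal GFP-positive against 55.2 CPM in small intestinal GFP-negative libraries (-2.35 ± 0.41, adjusted p = 0.00307). Slc12a2, the sodium-potassium-chloride cotransporter that loads cells with chloride, fell in the colon (-1.58 ± 0.24, adjusted p = 0.00149) and in the small intestine (-1.18, adjusted p = 0.0077). Adgrd1, an adhesion receptor, rose in the small intestine by 1.74 ± 0.24 (adjusted p = 0.000789), and in the colon its value was 0.51 (adjusted p = 0.254). The other called genes of the list, named after their values were seen, were in the colon Gucy1a1 (1.54, adjusted p = 0.00359) and Gucy1b1 (1.62, adjusted p = 0.0019), the subunits of the nitric oxide receptor, and the potassium channel Kcnma1 (-1.40, adjusted p = 0.0412).

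Of 22 genes that relay or brake the Kit signal, all were tested. In the colon 4 rose and 1 fell, with a median of -0.08, beside backgrounds of 4.62% of all genes called higher and 4.06% called lower. In the small intestine 3 rose and 2 fell, with a median of 0.11, beside backgrounds of 4.24% and 6.63%. Lyn, a Src-family kinase, rose in the colon by 2.93 ± 0.42 (adjusted p = 0.00107). Fyn, of the same family, rose by 0.93 ± 0.17 in the colon (adjusted p = 0.00495) and by 0.68 in the small intestine (adjusted p = 0.0233). Gab2, an adaptor, rose by 0.82 ± 0.17 in the colon (adjusted p = 0.00934), or adjusted p = 0.0631 without the third colon GFP-negative library. In the small intestine Gab2 rose by 0.90 ± 0.17 (adjusted p = 0.00487). Pik3r1, the regulatory subunit of PI3 kinase, rose there by 0.76 ± 0.19 (adjusted p = 0.0198), a call lost without the first GFP-positive library (adjusted p = 0.0748) or the third (adjusted p = 0.0651). Src fell there by 1.06 on the log2 scale (SE 0.27, adjusted p = 0.0225). Its call was lost with the replicate block (adjusted p = 0.0619), without the first or second GFP-positive library (adjusted p = 0.0692 and 0.089) and without the second GFP-negative library (adjusted p = 0.0623). With the block 5 genes of this list rose in the small intestine. Without the first or the third small intestinal GFP-positive library 1 rose there, and without the third colon GFP-negative library 2 rose in the colon. The number that fell in the small intestine was 1 without any 1 of the colon libraries or the third small intestinal GFP-negative one, 0 without the first or the second small intestinal GFP-positive library and 4 without the second small intestinal GFP-negative one. The number that fell in the colon was 0 without any 1 of the 6 colon libraries or the first small intestinal GFP-positive one.

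The relatives of each gene were counted in the same way. The background called lower was 4.06% of all genes in the colon and 6.63% in the small intestine. Of 6 class III receptor kinases and ligands tested besides Kit and Kitl, 3 fell in the colon (median -1.11) and none was called in the small intestine (median -0.49). They were Pdgfra (-1.37 ± 0.32, adjusted p = 0.0166) and Pdgfrb (-1.52 ± 0.35, adjusted p = 0.0166), receptors of platelet-derived growth factors, and Il34, a ligand of the Csf1 receptor (-3.97 ± 1.06, adjusted p = 0.0404). None of the 3 was called without any 1 of 5 colon libraries, and 1 was without the third colon GFP-negative library. Without the second small intestinal GFP-negative library 1 rose and 1 fell there. Adam17 and Adam33, proteases that are known or candidate releasers of membrane Kitl, were not called in either tissue, with Adam17 at 67 CPM in colon GFP-positive and 60.9 CPM in colon GFP-negative libraries. Mmp9, also in that list, had 533 counts in all and did not pass the filter. With Mmp9 the list summed to 156 CPM in the third small intestinal GFP-negative library, against 46.5 to 75.5 CPM in the others. Of 6 anoctamins tested besides Ano1, 2 fell in the colon (median -0.79), namely Ano2 (-4.34 ± 1.18, adjusted p = 0.0371) and Ano5 (-4.04 ± 1.04, adjusted p = 0.0348). Both calls were lost without any 1 of the 6 colon libraries. In the small intestine 1 fell (median -0.47): Ano9 had 0 counts in the GFP-positive libraries and a mean of 5.16 CPM in the GFP-negative ones, at least 52.7-fold lower with a floor of 3 counts over the group. Without the first small intestinal GFP-positive library 2 fell there.

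Of 8 relatives of Etv1 and brakes of MAP kinase signalling, the pathway upstream of it, 3 fell in the colon (median -0.39) and none was called in the small intestine (median -0.03). Backgrounds called lower were 4.06% of all genes in the colon and 6.63% in the small intestine. The 3 were the Sprouty genes Spry2 (-0.98 ± 0.21, adjusted p = 0.0112), Spry4 (-1.44 ± 0.33, adjusted p = 0.0158) and Spry1 (-1.0 ± 0.24, adjusted p = 0.0205). The number was 1 without the first colon GFP-positive library and 1 without the second. Without the third small intestinal GFP-negative library 1 fell in that tissue, and 1 fell there with the replicate block.

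Markers of several cell types moved with the same sorts. Backgrounds over all genes were 4.62% called higher and 4.06% called lower in the colon, and 4.24% and 6.63% in the small intestine. Smooth muscle markers summed to 646 to 772 CPM in colon GFP-positive and 3060 to 4050 CPM in colon GFP-negative libraries, with 6 of 8 tested genes called lower. They summed to 1020 to 1220 CPM in small intestinal GFP-positive and 1590 to 4390 CPM in small intestinal GFP-negative libraries, with 5 of 8 called lower. Subepithelial telocyte markers summed to 537 to 576 CPM in colon GFP-positive and 2060 to 2170 CPM in colon GFP-negative libraries, with 7 of 7 called lower. They summed to 732 to 1490 CPM and 601 to 1230 CPM in small intestinal GFP-positive and GFP-negative libraries, with none called. The small intestinal sums were mostly Pdgfra (means of 924 and 607 CPM). The median log2 fold change there was -1.24, with 2 of 7 genes positive. Epithelial markers were present in spite of the EPCAM depletion, at 326, 623 and 1870 CPM in colon GFP-positive libraries, against 2490, 1080 and 2330 CPM in colon GFP-negative libraries. They were at 1.91, 15.3 and 11.5 CPM in small intestinal GFP-positive libraries, against 460, 226 and 748 CPM in small intestinal GFP-negative libraries. Ano1 and Kitl were highest among colon GFP-positive libraries in the third, the one with 1870 CPM of epithelial markers. Enteric glial markers summed to 8.02 to 35.1 CPM in colon GFP-positive and 42.6 to 103 CPM in colon GFP-negative libraries, with 2 of 5 called lower. They summed to 2.36 to 5.52 CPM in small intestinal GFP-positive and 155 to 344 CPM in small intestinal GFP-negative libraries, with 5 of 5 called lower. Pericyte markers summed to 116 to 135 CPM in colon GFP-positive and 257 to 527 CPM in colon GFP-negative libraries, with 3 of 5 called lower. They summed to 348 to 476 CPM in small intestinal GFP-positive and 386 to 1410 CPM in small intestinal GFP-negative libraries, with 2 of 5 called lower. Blood endothelial markers summed to 1780 to 2080 CPM in colon GFP-positive and 280 to 1120 CPM in colon GFP-negative libraries, with 4 of 8 called higher and 2 lower. They summed to 595 to 1990 CPM in small intestinal GFP-positive and 928 to 3190 CPM in small intestinal GFP-negative libraries, with 4 of 8 called lower. The list was split. The 4 called higher in the colon, Kdr, Pecam1, Cdh5 and Emcn, made up most of the colon GFP-positive sum (means of 627, 631, 506 and 141 CPM). Flt1, Plvap, Cd36 and Esam had negative log2 fold changes in both tissues, as with Flt1 at -4.68 in the colon and -6.94 in the small intestine. None of 6 tested neuronal markers was called in either tissue. Lymphatic endothelial markers summed to 12300 to 13900 CPM in colon GFP-positive and 192 to 286 CPM in colon GFP-negative libraries, and to 3710 to 12500 CPM and 192 to 551 CPM in small intestinal GFP-positive and GFP-negative libraries. The part of these cell types in the levels of Kit, Kitl, Ano1 and Etv1 was not tested.

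The genes whose profiles lay nearest to each of the 4 were found by the root mean square difference of log2 CPM, each centred on its own mean, over 12 libraries and 12729 candidate protein-coding genes. All libraries enter, so the groups set much of this likeness. Nearest to Kitl were Mgat3 (0.30), Spata13 (0.36), Fgfr2 (0.40), Ptgs1 (0.41) and Abcb1a (0.41), while Kitl itself had a root mean square of 1.11 around its mean. Nearest to Etv1 (own value 1.00) were Gria4 (0.26), Shisa4 (0.42), Dnah7b (0.43), Mks1 (0.44) and Nrp1 (0.44). Nearest to Ano1 (own value 1.41) were Parm1 (0.34), Card14 (0.44), Col12a1 (0.48), Hoxb9 (0.56) and Fibin (0.57). Kit had the most distant neighbours, with Slc2a6 (0.61), Runx2 (0.68), B4galnt1 (0.70), Basp1 (0.75) and Satb1 (0.77) against its own 1.52. Among the 4 genes, the closest pair was Kitl and Etv1 at 0.52 and the most distant was Kit and Ano1 at 1.54.

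**Figure D5:**
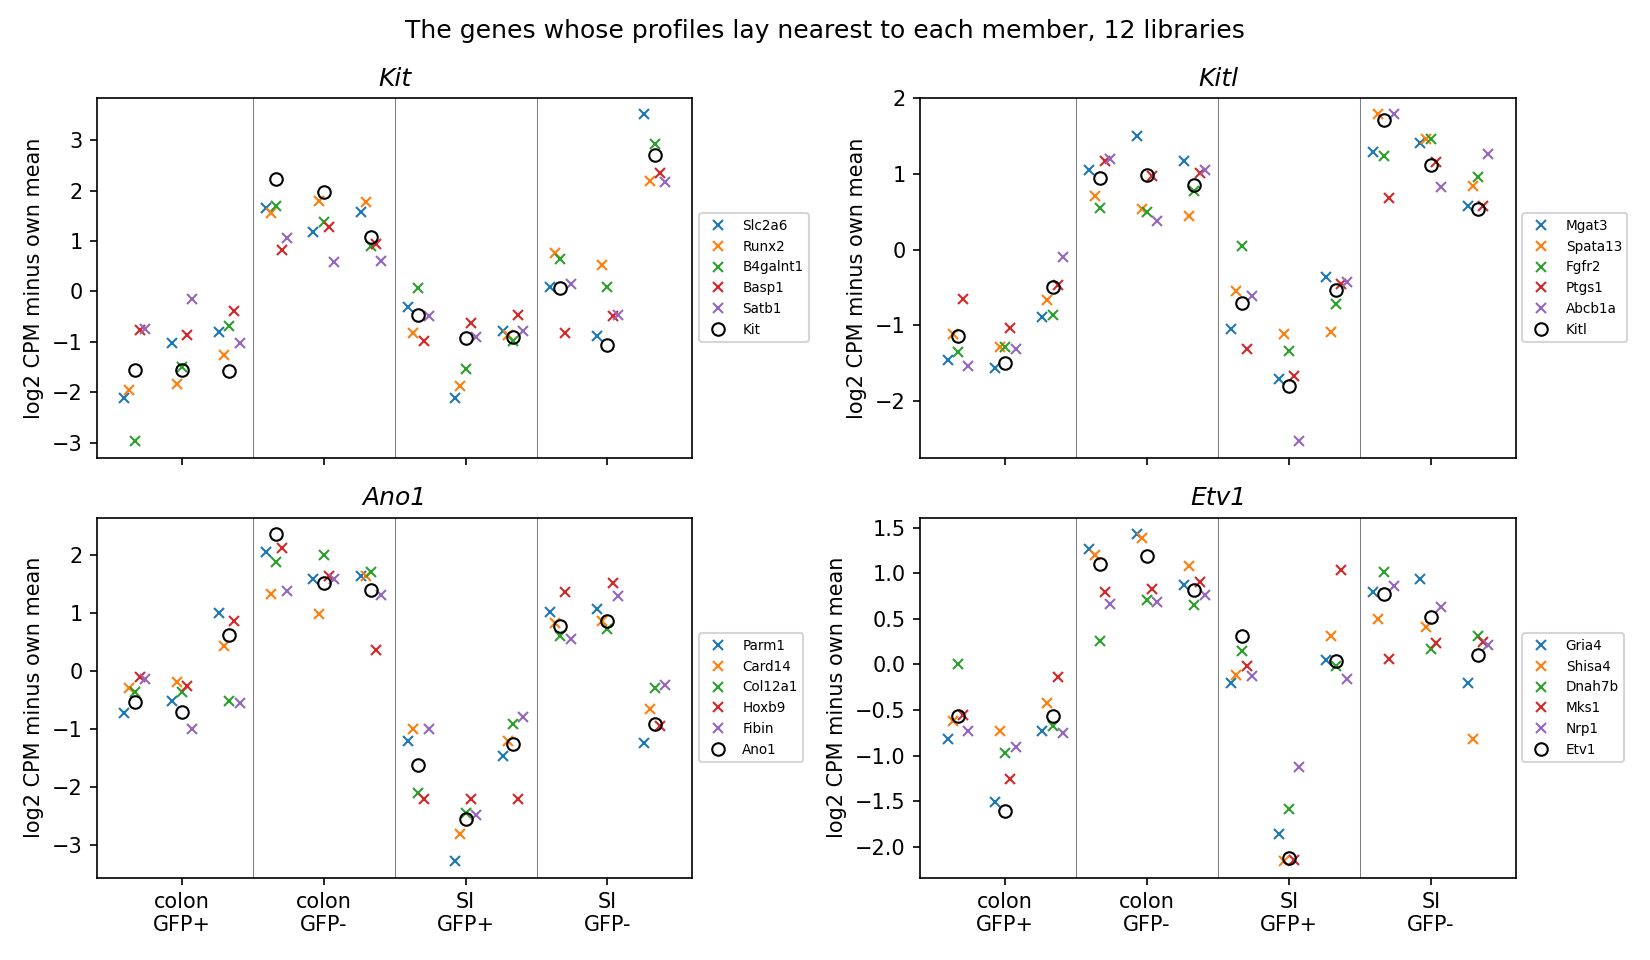
Log2 CPM minus each gene's own mean over the 12 libraries, for Kit, Kitl, Ano1 and Etv1 (open circles) and the 5 genes nearest to each by root mean square difference (crosses, set slightly apart sideways), by group and in the order of replicate numbers within a group. The 5 genes nearest to Kit are, like Kit, high in the third small intestinal GFP-negative library, and those nearest to Kitl are low in both GFP-positive groups.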

How the data were processed

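RNA was extracted on Qiagen columns and treated with ZapR to remove ribosomal sequences, per the labels' protocols. Reads were quantified with Salmon 1.1.0 and R 3.6.1 on mm10, per the submitters' processing notes; the annotation, filters, strandedness and rounding are not given in the sources used here. Estimated counts were deposited as whole numbers, taken here as rounded, and were used without change. Log2 values of TPM + 1 were deposited beside them, and were returned to TPM for levels. Identifiers were matched to GENCODE M21 symbols, which 32001 of 32052 had.

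Counts were fitted with edgeR 4.0.16 (robust quasi-likelihood, TMM factors, filterByExpr with a minimum count of 10, 1 mean for each of the 4 groups) in R 4.3.3, with Benjamini-Hochberg adjustment over 16757 genes. The code was tested on simulated data. SEs are of log2 fold changes, and intervals are 95%. Alternatives were DESeq2 1.42.0 and limma 3.58.1 on counts, limma on the deposited log2 values, other filters and scalings, and leaving out each library. Depth was 6489835 to 12286054 counts, so that Kit rests on as few as 21 counts in a library.

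Deviations of same-numbered small intestinal libraries from their group means correlated at 0.32, 0.18 and 0.17, so these numbers were taken to pair them, although the labels do not say what a number marks. Colon numbers were not (0.01, 0.05 and 0.09). Library names give the 2 sorts of the second colon replicate a shared prefix, and likewise all 4 libraries numbered 3, without saying what it marks.

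The genes and the 18 lists were chosen with earlier results of these data known. Of each list in each comparison up to 3 called genes with the smallest adjusted p were named, and where none was called up to 2 with the highest level. Likeness candidates had a mean log2 CPM (prior count 2) of at least 0.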

Additional observations from a re-analysis of the deposited data

Results flagged for a closer look

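None of Kit, Kitl, Ano1 and Etv1 passed the test of the GFP effect in the colon minus that in the small intestine (edgeR quasi-likelihood, Benjamini-Hochberg adjusted). Among the other genes named from the lists, 11 did. In each sentence the difference of the log2 effects stands first, then the 2 effects. The PI3 kinase subunit gene Pik3r1 gave -1.14 (adjusted p = 0.0473), from -0.38 in the colon and 0.76 in the small intestine. The receptor gene Pdgfra gave -1.98 (adjusted p = 0.0425), from -1.37 in the colon and 0.61 in the small intestine. Erbb3, listed for glia, gave 4.53 (adjusted p = 0.0382), from -1.26 in the colon and -5.79 in the small intestine. The fibroblast matrix genes gave -2.38 for Lum (adjusted p = 0.0297), -2.23 for Col1a2 (adjusted p = 0.0425) and -2.33 for Col3a1 (adjusted p = 0.0451), all 3 called higher in the small intestine and not called in the colon. The telocyte genes gave -4.04 for Bmp7 (adjusted p = 0.0196) and -2.89 for Bmp5 (adjusted p = 0.0432), both called lower in the colon and not called in the small intestine. The epithelial keratins gave 6.69 for Krt19 (adjusted p = 0.0219), 5.34 for Krt8 (adjusted p = 0.023) and 5.97 for Krt20 (adjusted p = 0.0422), all 3 called lower in the small intestine and not called in the colon. Each of the 11 calls was lost in some of the 12 fits that left out 1 library, from 3 of them for Bmp7 to 11 for Col1a2 and Col3a1. With the replicate number as a block, the calls of Pdgfra (adjusted p = 0.0924), Erbb3 (adjusted p = 0.0612), Bmp5 (adjusted p = 0.0825) and Krt20 (adjusted p = 0.0579) were lost. With limma-voom, those of Krt19 (adjusted p = 0.359), Krt8 (adjusted p = 0.182), Krt20 (adjusted p = 0.413), Erbb3 (adjusted p = 0.173), Bmp5 (adjusted p = 0.054) and Pik3r1 (adjusted p = 0.0619) were lost. With no low-count filter, those of Pik3r1 (adjusted p = 0.0611), Erbb3 (adjusted p = 0.105), Bmp5 (adjusted p = 0.126), Krt8 (adjusted p = 0.0569) and Krt20 (adjusted p = 0.101) were lost. On log2(TPM + 1), those of Pik3r1, Pdgfra, Erbb3 and the 3 keratins were lost, at adjusted p between 0.105 and 0.927. Pik3r1 was also lost with RLE factors in place of TMM (adjusted p = 0.0508) and with library sizes of protein-coding genes (adjusted p = 0.0552), and Col3a1 in the fit without robust estimation (adjusted p = 0.0536).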

How the results depend on the processing

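Kitl fell in the colon under all settings tried, and in the small intestine under all but the deposited log2(TPM + 1) values. With no low-count filter, adjusted p was 0.0939 for Kit (-3.50), 0.155 for Ano1 (-1.90) and 0.116 for Etv1 (-1.90) in the colon and 0.0821 for Ano1 (-2.19) in the small intestine. With limma-voom, Kit gave -3.40 in the colon (adjusted p = 0.074) and Ano1 -2.19 in the small intestine (adjusted p = 0.0521). DESeq2 called Kit in the small intestine (-2.28) and Ano1 in colon over small intestine, GFP-positive (1.70). Fitting only the groups compared gave Ano1 -2.19 in the small intestine (adjusted p = 0.0501); the difference of effects uses all groups and has no such value. On log2(TPM + 1), the GFP effects were -1.01 for Kit and -1.02 for Etv1 in the colon, and -1.60 for Kitl and -0.42 for Ano1 in the small intestine. The difference of effects turned to -0.19 for Kitl and -0.84 for Ano1. Colon over small intestine turned to 0.27 for Kitl and 0.03 for Etv1 in GFP-positive cells and to 0.47 for Kitl in GFP-negative cells, where Ano1 was called (1.36, adjusted p = 0.0314). That scale moved the median of all genes by 0.289 and 0.401 in these 2 comparisons and by -0.121 in the difference of effects. The causes were not tested.

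With the replicate number as a block, Ano1 was not called in the small intestine (-2.12) or the colon (-1.98, adjusted p = 0.0967), and Etv1 was not called in the colon (-1.95, adjusted p = 0.0563). The block changed no other call of the 4 genes, but moved Kit to -1.31 in the small intestine and to -2.12 in the difference of effects. In the colon 3 of 6 libraries correlated best with their own number. The libraries of colon pair 2, and those of pair 3, also share a prefix in the library names, which the labels do not explain, so whether colon libraries are paired was not settled.

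Leaving out 1 library at a time gave, for the GFP effect in the small intestine, -2.70 to -0.36 for Kit, -2.36 to -1.78 for Kitl, -2.58 to -1.90 for Ano1 and -1.18 to -0.31 for Etv1. In the colon it gave -3.76 to -3.26 for Kit, -2.23 to -1.71 for Kitl, -2.44 to -1.55 for Ano1 and -2.05 to -1.63 for Etv1. The difference of effects ran from -3.15 to -0.80 for Kit, -0.13 to 0.45 for Kitl, -0.26 to 0.67 for Ano1 and -1.59 to -0.72 for Etv1. Colon over small intestine in GFP-positive cells ran from -0.95 to -0.69 for Kit, -0.37 to 0.17 for Kitl, 1.17 to 1.98 for Ano1 and -1.03 to -0.16 for Etv1. In GFP-negative cells it ran from -0.07 to 2.28 for Kit, -0.51 to 0.09 for Kitl, 1.02 to 1.67 for Ano1 and 0.40 to 0.74 for Etv1.

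Over all genes, GFP-positive cells of the small intestine had 710 called higher (343 on log2(TPM + 1), 257 with only the groups compared, 511 to 1204 without a library) and 1111 lower (1678 with DESeq2, 328 on log2(TPM + 1), 593 with only the groups compared, 721 to 1440 without a library). In the colon 775 were higher (1566 with only the groups compared, 453 to 932 without a library) and 681 lower (1092 with DESeq2, 1450 with only the groups compared, 354 to 841 without a library). The difference of effects had 195 higher (664 with DESeq2, 64 with limma-voom, 49 on log2(TPM + 1), 29 to 447 without a library) and 150 lower (244 with no filter, 431 with DESeq2, 37 to 597 without a library). Colon over small intestine in GFP-positive cells had 461 higher (818 with DESeq2, 186 with limma-voom, 257 to 614 without a library) and 304 lower (612 with DESeq2, 178 with limma-voom, 65 on log2(TPM + 1), 464 with only the groups compared, 125 to 468 without a library). In GFP-negative cells 369 were higher (767 with DESeq2, 1318 on log2(TPM + 1), 218 with only the groups compared, 122 to 690 without a library) and 337 lower (899 with DESeq2, 191 on log2(TPM + 1), 188 with only the groups compared, 65 to 539 without a library).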
